A study of Mus musculus with 6 samples.

Results

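Spots of 6 brain sections were chosen by the summed expression of 5 genes, Cyp26b1, Bmp3, Lypd1, Lmo3 and Kcng1, which mark the ventral cortex and the cortical amygdala. A Visium spot is a small barcoded disc of tissue that holds several cells or parts of cells, and each captured RNA molecule is counted once by its unique molecular identifier (UMI). For every spot with at least 1000 UMIs inside the tissue mask, the natural log of 1 plus the UMIs per 10000 was summed over the 5 genes. Spots at or above the 94th percentile of this score over all sections together, a cutoff of 2.748, were taken as members. These were 800 of 13334 spots, or 6.0%. The 5 genes chose the spots, so their values are given as a description and are not tested.

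The sections were coronal, from the right hemisphere of female mice homozygous for human APOE3 (E3) or APOE4 (E4) at the mouse Apoe locus. Each genotype gave 1 section at 3 months (young), 1 at 24 months (aged) and 1 at 12 months after a cross to the 5xFAD line (5xFAD). The 5xFAD line carries mutant human transgenes, APP among them, behind the mouse Thy1 promoter, which is active in neurons, and its brain accumulates amyloid. Age and the transgenes differ together between the 5xFAD and the young sections, and their parts cannot be told apart. With 1 section per group there is no replicate within a group, so each p-value below comes from a model over all 6 sections. Values for all sections are listed with E3 before E4 within the young, the aged and the 5xFAD pair, in that order.

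The ventral cortex holds the piriform (olfactory) and entorhinal fields and passes into the cortical amygdala, which receives smell input and takes part in social and fear behaviour. Retinoic acid, bone morphogenetic protein (BMP) and cholinergic signalling have all been described in this tissue. Cyp26b1 (mm10 chr6:84571414-84593908, minus strand) encodes a cytochrome P450 that degrades retinoic acid. Bmp3 (chr5:98854415-98884396, plus strand) encodes a BMP family ligand. Lypd1 (chr1:125867622-125913101, minus strand) encodes a Ly6-type protein that binds nicotinic acetylcholine receptors and lowers their activity. Lmo3 (chr6:138362918-138581968, minus strand) encodes a LIM-only adaptor of transcription factors. Kcng1 (chr2:168260117-168281736, minus strand) encodes a potassium channel subunit that is silent by itself and alters Kv2 channels.

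Several facts about the sections touch every value below. Tissue mask and count matrix, as deposited, overlapped by 99.7% in E3 5xFAD but by 60.0% to 73.9% in the other 5 sections. A mask turned by 90 degrees and shifted to its best fit would have overlapped there by 81.5% to 83.2%. Shifted to its best fit without a turn, the mask overlapped in these 5 sections by 70.9% to 78.2%. Outside the masks lay 1275 barcodes with at least 1000 UMIs. When all barcodes were used the rule gave 877 members, with shares of 6.82% and 6.98% in the young, 4.70% and 9.08% in the aged and 6.40% and 3.19% in the 5xFAD pair. The 6 matrices have 1483 spot barcodes in common, as is normal for one array design. Members carried 984989 UMIs in E4 5xFAD and 1809663 to 3280492 in the other sections. Their median depth was 13927 to 16142 UMIs per spot in 5 sections and 24628 in E4 aged. The human APOE transcript was present in members of all 6 sections, at 593 to 937 counts per 1000000 UMIs (CPM), and mouse Apoe reads stood at 57.8 to 97.85 CPM.

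Members rested mainly on Lypd1 and Lmo3. All 5 genes were detected in 129 members, 4 in 235, 3 in 316, 2 in 119 and a single gene in 1. The score ran from 2.75 to 7.06, with a median of 3.29. The 50 members just above the cutoff scored 2.75 to 2.80, and 94% of them had an Lmo3 UMI, 96% an Lypd1 UMI and 32% a Cyp26b1 UMI. The 50 spots just below it scored 2.71 to 2.75, and 92%, 88% and 44% of them had these UMIs. Spots at the cutoff were therefore much alike on both sides, and the set has no natural edge.

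Cyp26b1 set members most apart from the other spots. In members it stood at 111 and 97.8 CPM in the young pair, 61.4 and 105 CPM in the aged pair and 63.7 and 29.5 CPM in the 5xFAD pair, where other spots had 6.28 to 10.3 CPM. Its lowest level was that of E4 5xFAD, with an exact 95% Poisson interval of 19.7 to 42.3 CPM. The rule used this gene, so the order of the sections is a description. Lypd1 was highest in E4 young (391 CPM) and E4 aged (361 CPM), lower in E3 young (287 CPM), and lay between 215 and 236 CPM in E3 aged and both 5xFAD sections. Lmo3 varied least, from 270 to 337 CPM, against 69.4 to 92.8 CPM in other spots. Kcng1 ranged from 46.7 CPM in E4 5xFAD to 75.02 CPM in E4 aged, and Bmp3 from 28.4 CPM in E4 5xFAD to 50.1 CPM in E4 young. These intervals, like all intervals given here for single sections, cover counting error only.

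**Figure D1:**
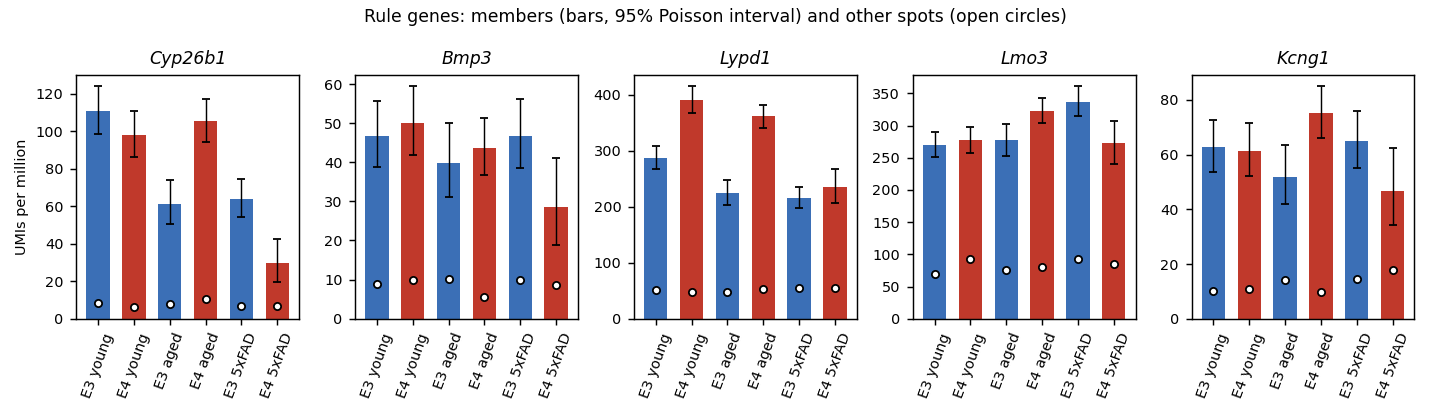
Level of the 5 rule genes in members (bars, CPM, with exact 95% Poisson intervals) and in the other spots of the same section (open circles), blue for E3 and red for E4. Every bar lies above the open circle of its section, and Cyp26b1 is lowest in E4 5xFAD at 29.5 CPM.

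Members lay close together to a degree that differed between sections, and the rule had not used position. Position was measured along the line from the hippocampal landmark spots (0) to the hypothalamic landmark spots (1). Members lay ventrally, at median positions of 0.957 and 0.728 in the young pair, 1.04 and 0.916 in the aged pair and 0.997 and 0.520 in the 5xFAD pair. The other spots had medians of 0.226 to 0.516. Across that line members lay laterally, with median offsets of 0.687 to 0.893 of the landmark distance, against 0.201 to 0.494 for other spots. Among the spots next to a member, 49.0% and 56.3% were members in the young pair, 31.0% and 55.8% in the aged pair, 35.0% in E3 5xFAD and 10.3% in E4 5xFAD. Next to other spots this share was 2.65% to 4.25%.

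The largest connected patch held 116 and 101 members in the young pair, 32 and 88 in the aged pair and 46 in E3 5xFAD, or 63.7%, 63.9%, 32.3%, 65.7% and 29.5% of the members of these sections. In E4 5xFAD it held 4 of 71 (5.63%). Members that touched no other numbered 37 and 27 in the young pair, 29 and 14 in the aged pair and 44 and 41 in the 5xFAD pair. Over all sections 387 members lay in the largest patch of their section, 460 touched at least 2 others, and 629 lay in the ventral lateral sector (a position over 0.5 with an offset over 0.4). The ventral lateral members numbered 35 in E4 5xFAD and 68 to 152 in the other sections.

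**Figure D2:**
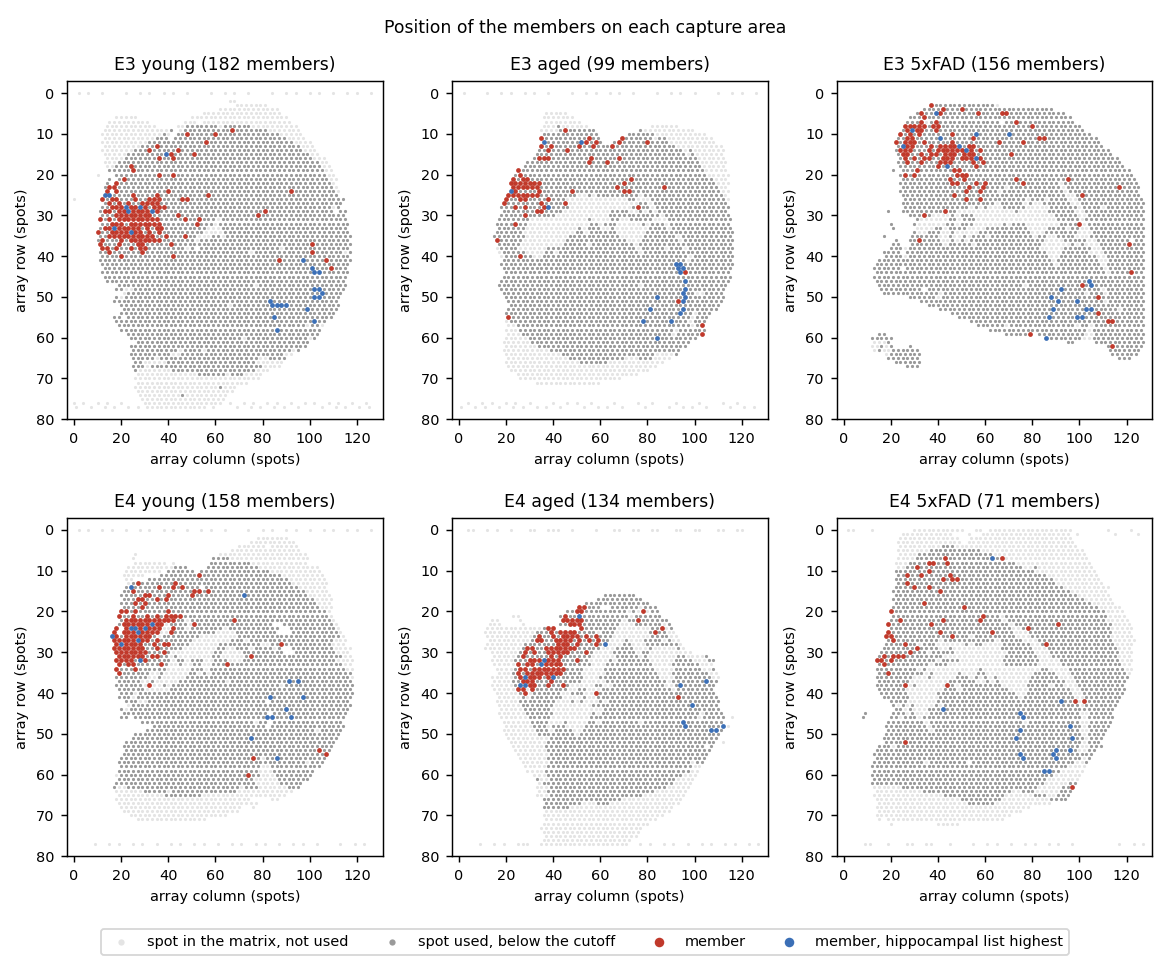
Members on the capture area of each section (array column and row, in spots), in red, or in blue where a hippocampal gene list was the highest of the region lists, over the other spots used (grey) and matrix spots not used (light grey). A red field at the upper left of the array is densest in both young sections and E4 aged, looser in E3 aged and E3 5xFAD, and the 71 members of E4 5xFAD are scattered.

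The share of spots that were members differed between sections. It was 6.88% and 7.04% in the young pair (182 and 158 spots), 4.63% and 9.27% in the aged pair (99 and 134) and 6.14% and 3.06% in the 5xFAD pair (156 and 71). The rule chose the spots, so the shares are a description. The exact binomial interval was 7.83% to 10.9% in E4 aged and 2.40% to 3.84% in E4 5xFAD. It counts each spot as a separate draw, although members lay next to each other, and does not measure the spread between sections. E4 aged also had the fewest spots in use, 1445 against 2140 to 2644. Share and genotype did not move in a constant direction: E4 lay above E3 in the aged pair, below it in the 5xFAD pair, and close to it in the young pair. How much of each share reflects the plane of section was not tested.

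The name of the area was borne out in part. Each spot was given the region list, out of 13 lists of marker genes, with the highest mean z score. The amygdala and piriform list came out highest in 79 members (9.88%) against 2.03% of other spots, and the list of the central and medial amygdala in 73 (9.13%) against 4.30%. Isocortex layer 5 was the most frequent list, in 177 members (22.1%) against 9.67%. Striatum followed with 93 members (11.6%) against 7.26%, upper isocortex layers with 82 (10.25%) against 10.05%, and hippocampal CA with 81 (10.1%) against 6.94%. The share of upper isocortex layers was thus near that of other spots. No member was assigned to the thalamus, the list of 18.9% of other spots. In E4 5xFAD the amygdala and piriform list was highest in 0 of 71 members, which allows a share of up to 4.23%, and in the other sections it was highest in 6.41% to 13.9%. For 178 members the 2 highest lists lay within 0.1 z, so single assignments are loose. In all, 125 members (15.6%) were assigned to a hippocampal list, CA or dentate gyrus, 16 to 27 in each section. The dentate gyrus list was highest in 44 members (5.5%) against 5.57% of other spots. The set is therefore described below by its rule, as spots rich in the 5 genes, and results are repeated on the ventral lateral members.

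Beyond the 5 genes, members were richest in C1ql3, a secreted C1q-like protein of excitatory synapses. In members C1ql3 stood at 130 and 74.3 CPM in the young pair, 99.0 and 108 CPM in the aged pair and 69.0 and 13.2 CPM in the 5xFAD pair. In other spots it was at 21.3 and 16.0, 28.5 and 18.9, and 19.8 and 11.7 CPM. The excess was thus large in 5 sections and near nil in E4 5xFAD. Next came Rxrg, a retinoid X receptor, with a median log2 ratio of 1.68 over the 6 sections, and then the cadherin Cdh9 (1.44), the matricellular protein Ccn3 (1.25), Ankrd63 (1.25), the calcium sensor Hpcal1 (1.24) and the endoplasmic reticulum protein Wfs1 (1.19). The enkephalin precursor Penk (1.10), Spink8 (1.16), Man1a (1.13), Myo5b (1.06), Mas1 (1.04), Cdkl4 (1.02) and Myh7 (1.01) followed. Lowest were the thalamic kinase gene Prkcd (-2.51), Ttr of the choroid plexus (-2.45), the hypothalamic neuropeptide gene Hcrt (-2.10), Plcb4 (-1.90) and Amotl1 (-1.61).

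The leading genes did not run through the set evenly. Pooled over sections, C1ql3 stood at 147 CPM in the 387 members of the largest patches, 42.9 CPM in the 125 hippocampal members, 35.2 CPM in the remaining members and 19.3 CPM in other spots. Rxrg stood at 38.2, 8.50, 17.3 and 7.90 CPM in these 4 sets, and Hpcal1 at 299.6, 91.4, 157 and 76.8 CPM, so both were highest in the patches. Spink8, a gene of hippocampal field CA1, did the reverse, at 144 CPM in the hippocampal members and 33.3 CPM in the patches. Cyp26b1 itself stood at 129 CPM in the patches and at 53.8 and 43.6 CPM in the other 2 sets of members. Across spots within a section, the genes whose CPM ran most like the score included Ctxn1, Rtn1, Hpcal4, Ddn, Gpm6a, Icam5 and Gria2. All of these are expressed in neurons. The median Spearman correlation over the 6 sections was 0.42 for Ctxn1 and 0.38 for Gria2. These correlations share the depth of each spot and are given as a description.

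Most partners of the 5 genes were not high as groups, while those of Lmo3 were modestly higher in members. The list of 19 retinoic acid genes summed to 215 to 268 CPM in members and to 259 to 306 CPM in other spots, although its member Rxrg was among the leading genes. The 30 BMP pathway genes had a median log2 ratio of -0.15 and the nicotinic receptors and their Ly6 modulators one of -0.44, beside -0.0115 over all 15291 genes measured. For LIM-only and LIM-homeobox partners of Lmo3 it was 0.21, and for Kv2 channels and silent subunits -0.11. In sum, the LIM list was higher in members in every section, at 546 to 762 CPM against 468 to 590 CPM in other spots. Kv2 genes in sum were also higher in every section, by little in E3 aged (310.7 against 310.6 CPM). Nicotinic genes in sum were higher in the young and aged pairs and lower in the 5xFAD pair. BMP genes in sum were lower in all sections but E4 5xFAD. Of other cell types, the fiber tract list was lower in members in all 6 sections for 11 of 13 genes (median -0.83). The astrocyte list was so for 7 of 10 (median -0.35). Over all genes measured, 1773 of 15291 were lower in members in all 6 sections.

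Members of the 5xFAD sections were set against those of the young sections in a model with genotype and condition, fitted to the UMIs summed over the members of each section (edgeR quasi-likelihood test, Benjamini-Hochberg adjusted p under 0.05 over 12103 genes). In 5xFAD, 33 genes passed (0.273% of those tested), of which 30 were higher (0.248%) and 3 were lower (0.0248%). Among those higher were the APP transgene, 11 of 29 genes of plaque-associated microglia, 4 of 8 complement genes, 2 of 9 genes of major histocompatibility complex (MHC) class I and the astrocyte filament gene Gfap. Lower were Etv1, Sccpdh and Gm42418. The median log2 difference over all genes was -0.0040. A spot mixes RNA of many cells, so more cells of a type and more RNA per cell cannot be told apart.

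The APP transgene checked the labels. Human APP had no UMI in members of the 4 sections without 5xFAD, and 134 CPM in E3 5xFAD and 129 CPM in E4 5xFAD, at least 120.5-fold and 112-fold higher than a floor of 3 UMIs in the young section of the same genotype. Thy1, the gene whose promoter drives the transgenes, was at 770, 716, 856 and 885 CPM in the young and aged pairs, and at 5363 and 6270 CPM in E3 and E4 5xFAD. Its log2 difference was 2.87 ± 0.14 (SE of the fit, adjusted p = 2.0e-06). Mouse App (1090 to 1301 CPM) did not pass the test. How much of the Thy1 count comes from transgene transcripts was not tested.

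Of the disease-associated microglia list, genes that microglia switch on around plaques, 11 of 29 tested rose, with a median log2 difference of 1.14. Cst7, an inhibitor of lysosomal proteases and a hallmark of these cells, had 1 and 0 UMIs in the young pair, and stood at 2.21 and 0.61 CPM in the aged pair and 41.5 and 55.9 CPM in the 5xFAD pair. In the E4 pair that is at least 48.3-fold higher. In the E3 pair the log2 ratio was 6.81, with an exact conditional interval of 4.30 to 12.1. Trem2, the lipid-sensing receptor of microglia, stood at 18.9, 22.7, 26.0, 25.01, 84.6 and 139 CPM over the 6 sections (log2 difference 2.28 ± 0.19, adjusted p = 0.000125). Its signalling adaptor Tyrobp stood at 49.3, 43.9, 46.4, 50.3, 223 and 248.8 CPM (2.24 ± 0.14, adjusted p = 1.1e-05). For Trem2 and Tyrobp both 5xFAD sections lay far above the other 4, which lay close together.

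The other members of this list that rose were the chemokine gene Ccl6 (3.86 ± 0.47), lysozyme Lyz2 (3.53 ± 0.32), Cd52 (2.61 ± 0.32), the lysosomal proteins Cd68 (2.03 ± 0.23), Ctsz (1.74 ± 0.20) and Ctsd (1.36 ± 0.12), B2m (1.14 ± 0.13) and the tetraspanin gene Cd9 (1.11 ± 0.18). Outside the list, the macrophage pore protein Mpeg1 rose by 2.36 ± 0.21, and Ly86, Laptm5, Cyba, Ctss and Fcer1g, all of myeloid cells, by 1.35 to 1.71. The list of 11 genes of homeostatic microglia had a median of 0.62, with 9 estimates positive. None of the 9 genes of border macrophages and lymphocytes had enough UMIs to be tested, and their summed level was 2.03 to 9.95 CPM in every section.

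Of 8 complement genes tested, 4 rose. C4b, which opens the classical cascade after C1q, stood at 10.7, 11.6, 22.7, 18.9, 54.6 and 138 CPM (2.88 ± 0.31, adjusted p = 0.00113). The 3 chains of C1q rose by 1.57 ± 0.14 (C1qb), 1.44 ± 0.18 (C1qc) and 1.41 ± 0.15 (C1qa). The median over the 8 was 1.5. Of 9 MHC class I genes H2-D1 (1.37 ± 0.16) and B2m passed, all 9 estimates were positive, and their median was 1.04. Of 10 interferon response genes Lgals3bp passed (1.94 ± 0.25), with a median of 0.80.

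Gfap, the intermediate filament of reactive astrocytes, stood at 34.1, 34.3, 63.6, 37.8, 154 and 317 CPM (2.61 ± 0.29, adjusted p = 0.00135). It was the single gene of 10 on the reactive astrocyte list to pass, and the list's median was 0.55. The general astrocyte markers had a median of 0.03, with none of 10 past the threshold. Also higher were Gsg1l, an auxiliary subunit of AMPA receptors (1.32 ± 0.21, adjusted p = 0.0168), and Wasf3, an actin regulator (0.94 ± 0.13, adjusted p = 0.00868).

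**Figure D3:**
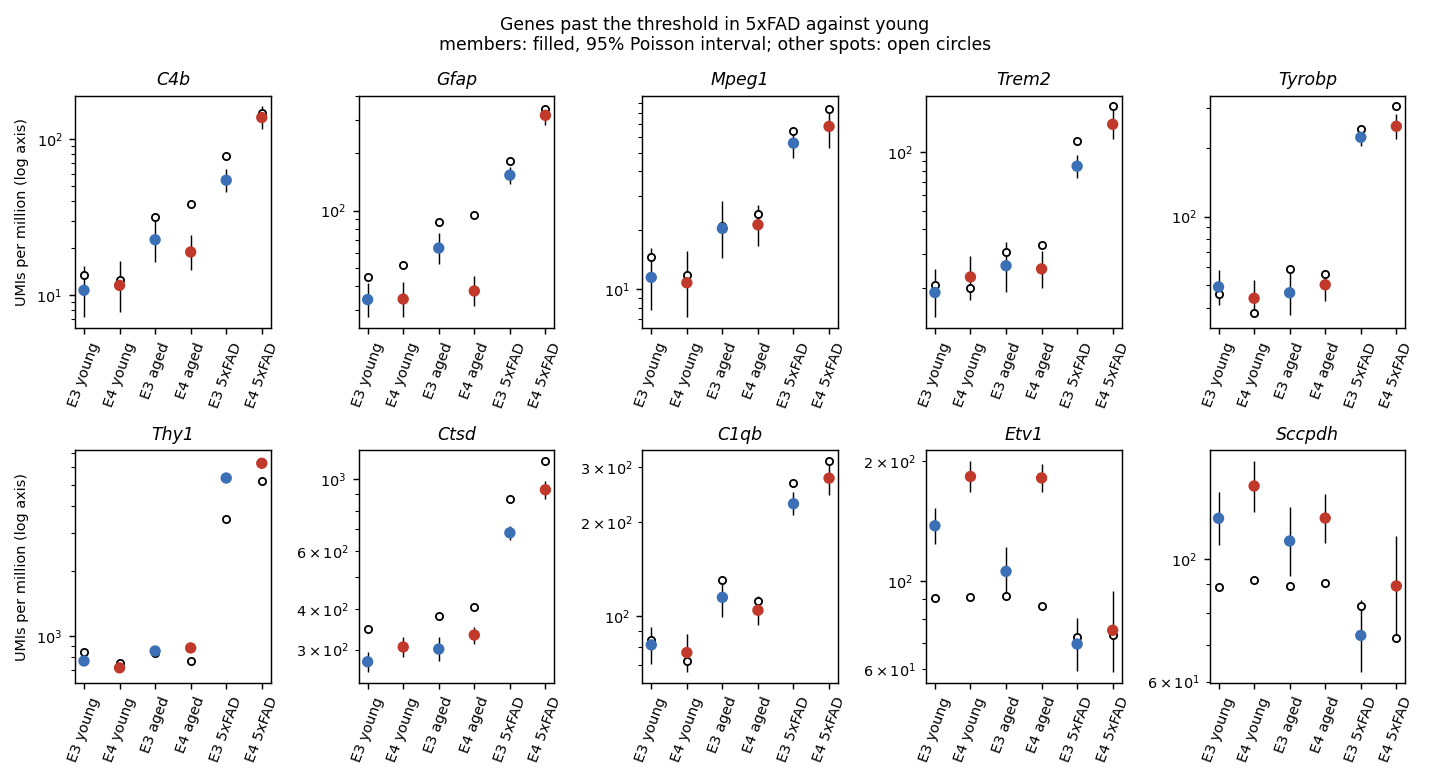
Level in members of 10 genes that passed the test in 5xFAD against young (filled circles, CPM on a log axis, exact 95% Poisson intervals, blue for E3 and red for E4) and in the other spots of the same section (open circles). The 8 genes that rose are highest in the 2 5xFAD sections, as in the other spots, and Etv1 and Sccpdh are lowest there.

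Etv1, an ETS transcription factor of layer 5 projection neurons, fell. It stood at 137, 183, 106 and 181 CPM in the young and aged pairs, and at 69.4 and 75.2 CPM in E3 and E4 5xFAD (-1.18 ± 0.17, adjusted p = 0.0109). Among the ventral lateral members alone the difference was -1.33 (adjusted p = 2.3e-05). The isocortex layer 5 list, which holds Etv1, was highest in 23.1% and 27.85% of members in the young pair. It was highest in 19.2% and 26.9% in the aged pair and in 19.2% and 8.45% in the 5xFAD pair. The amygdala and piriform list, which also holds Etv1, was highest in 12.6% and 13.9% of members in the young pair. For the aged pair this was 7.07% and 12.7%, and for the 5xFAD pair 6.41% and 0%. The part of these shifts in the fall of Etv1 was not tested. In other spots Etv1 lay at 86.4 to 91.8 CPM without 5xFAD and at 72.3 and 73.0 CPM with it. Sccpdh, an enzyme related to saccharopine dehydrogenase, stood at 118, 136, 108, 119, 72.7 and 89.4 CPM (-0.75 ± 0.13, adjusted p = 0.0472). Gm42418, a transcript that overlaps ribosomal RNA and was on the list of RNA quality genes, was at 761, 583, 726 and 739 CPM without 5xFAD and at 445 and 262 CPM with it (-1.02 ± 0.18, adjusted p = 0.0472). Lmo4, a relative of Lmo3, did not pass: it was at 324 to 350 CPM in the 4 sections without 5xFAD and at 240 and 199 CPM with it (-0.75 ± 0.13, adjusted p = 0.051).

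Most other lists gave no call in 5xFAD: 0 of 22 immediate-early genes, 0 of 29 synaptic genes, 0 of 15 retinoic acid genes, 0 of 24 BMP pathway genes, 0 of 8 nicotinic genes, 0 of 10 LIM partners and 0 of 7 Kv2 genes passed, by edgeR, which gave 916 genes an unadjusted p under 0.05 in all. Cholesterol synthesis genes leaned upward without a call, with 19 of 20 estimates positive and a median of 0.34. Of these Insig1 had 0.73 ± 0.15 (adjusted p = 0.105) and Fdft1, squalene synthase, 0.61 ± 0.13 (adjusted p = 0.154). All 13 mitochondrially encoded genes had negative estimates, with a median of -0.52 and no call. The median mitochondrial share of a member's UMIs was 16.1% in E3 young and 13.03% to 13.4% in E4 young and the aged pair, and 12.5% and 8.85% in E3 and E4 5xFAD. The fiber tract list had a median of -0.38 over 12 genes, and blood genes summed to 10.7 and 11.2 CPM in 5xFAD against 13.7 to 107 CPM in the other sections. The part of these shifts in the results was not tested.

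DESeq2 called 27 genes, 26 of them shared with the 33. The count fell when E3 young or E4 young was taken out, and it rose without an aged or a 5xFAD section. Such a fit leaves a single section in a condition and fewer than 2 residual degrees of freedom. Its count thus does not show on which sections the result rests.

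Whether members responded to 5xFAD differently from other cortex was tested with an interaction term. Comparison spots were chosen as the members had been, by 5 genes of upper cortical layers (769 spots) or of deep layers (767 spots), and sums of both sets of spots were fitted with section as a block. Against upper cortex, 4 of 12651 genes (0.0316%) differed, 2 in each direction (0.0158%). The fall of Etv1 was larger in members, by -1.24 ± 0.21 on the log2 scale (adjusted p = 0.00348), since upper cortex spots had 40.3 to 51.1 CPM in 5 sections and 73.2 CPM in E4 aged. Nnat, an imprinted small membrane protein of developing neurons, stood at 312, 395, 209, 372, 277 and 197 CPM in members, and at 69.1, 60.9, 66.3, 210, 143 and 95.3 CPM in upper cortex (-1.44 ± 0.20, adjusted p = 7.6e-05). Nnat thus ran lower in 5xFAD than in young members and higher in upper cortex. Thy1 gained more in members (0.76 ± 0.15, adjusted p = 0.021): upper cortex reached 3052 and 4142 CPM in the 5xFAD pair, against 5363 and 6270 CPM in members. Gsg1l stood at 18.1 and 15.4 CPM in young members and at 44.8 and 44.7 CPM in 5xFAD members, while upper cortex kept to 52.5 to 66.3 CPM throughout (1.38 ± 0.26, adjusted p = 0.021).

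**Figure D4:**
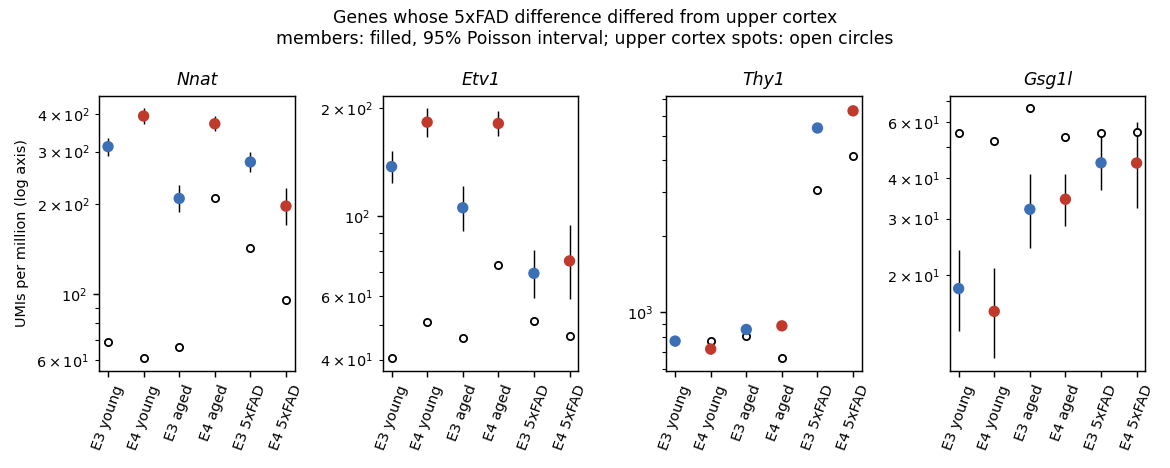
Level in members (filled circles, CPM on a log axis, exact 95% Poisson intervals, blue for E3 and red for E4) and in upper cortex comparison spots (open circles) of the 4 genes whose 5xFAD difference was not the same in both. Etv1 falls in 5xFAD members towards the level of upper cortex, and Gsg1l approaches it from below.

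Against deep cortex, 19 of 12368 genes (0.154%) differed in their 5xFAD response. Relative to deep cortex, 7 moved lower in members (0.0566%) and 12 higher (0.097%). Those lower were Nr2f2 (-1.92 ± 0.29, adjusted p = 0.00026), the transcription factor COUP-TFII of caudal and ventral forebrain, as well as Hpcal1 (-1.03 ± 0.19), Cnih3 (-0.97 ± 0.20), Nnat (-0.95 ± 0.17), C1qa (-0.82 ± 0.17), Ccn3 (-0.76 ± 0.17) and the interneuron peptide Sst (-0.65 ± 0.15). Nr2f2 stood at 97.4, 122, 61.9 and 139 CPM in members without 5xFAD, 72.3 CPM in E3 5xFAD and 15.2 CPM in E4 5xFAD, the section whose largest patch held 4 members. The 5xFAD over young log2 ratio of Hpcal1 in members was -0.18 (-0.36 to 0.0085) in E3 and -1.53 in E4. For Nnat it was -0.1717 and -1.003, for Ccn3 -0.2297 and -0.8109, for Cnih3 -0.258 and -0.5509, and for Sst -0.6571 and -1.104. Each of these ratios was lower in E4 than in E3. The part of the scattered members of E4 5xFAD in them was not tested. C1qa was higher in both sets of 5xFAD, and reached 277 and 311 CPM in deep cortex against 198 and 205 CPM in members. The 12 genes that moved higher included Nfil3 (2.51 ± 0.51), Prkca (1.09 ± 0.18), the immediate-early genes Nr4a1 (0.95 ± 0.21) and Egr1 (0.67 ± 0.15), the formin gene Inf2 (0.82 ± 0.18), and the synaptic or secretory genes Nptx1 (0.81 ± 0.15), Chgb (0.73 ± 0.14) and Cplx2 (0.64 ± 0.13). Higher here means relative to deep cortex. In members alone, the 5xFAD over young log2 ratio of Nr4a1 was -0.885 in E3 and 0.186 in E4. That of Egr1 was -0.081 and 0.307. For Inf2 it was 0.056 (-0.25 to 0.36) in E3, an interval that spans both signs, and 1.38 in E4. The other genes just named had positive ratios in both genotypes. Nptx1, for example, went from 142 and 164.5 CPM in young members to 232 and 199 CPM in 5xFAD, and in deep cortex from 408.5 and 410.2 to 317 and 342 CPM. For Nptx1 aged members also lay above young ones, with log2 ratios of 0.45 in E3 and 0.37 in E4. The 5xFAD over young ratios were 0.70 and 0.28.

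The interaction calls depended on several settings. DESeq2 called 0 genes against either set, the 90th percentile as the cutoff also gave 0, and against deep cortex members that touch at least 2 others gave 0 and all barcodes 4. E4 aged supplied 13 upper and 36 deep cortex spots, against 124 to 174 and 142 to 153 elsewhere, and its upper cortex spots held striatal genes at 2353 CPM in sum, against 382 to 764 CPM in the other sections. The calls against upper cortex numbered 0 without E4 young, 7, 44, 43, 8 and 12 without E3 young, E3 aged, E4 aged, E3 5xFAD or E4 5xFAD, and those against deep cortex 3 without E4 young and 12, 82, 83, 49 and 33 without the others in that order.

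In aged against young members, 6 of 12103 genes were higher (0.0496%) and 0 were lower, with 591 genes at an unadjusted p under 0.05. DESeq2 called 4 genes, 3 of them among the 6. Of the 6, 5 are immediate-early genes, which neurons transcribe within minutes of activity. Npas4, an activity-dependent transcription factor, stood at 14.4 and 16.2 CPM in E3 and E4 young and at 216 and 189 CPM in E3 and E4 aged (3.67 ± 0.40, adjusted p = 0.00491). Fos, a subunit of the AP-1 factor, rose from 27.8 and 38.1 to 248.8 and 196 CPM (2.72 ± 0.34, adjusted p = 0.0134). Its relative Fosb rose from 8.15 and 15.4 to 101 and 90.9 CPM (2.97 ± 0.24, adjusted p = 0.000275). Both aged sections lay above both young ones for each of these genes. In the young pair Fosb was higher in E4, with a log2 ratio over E3 of 0.92 (0.13 to 1.74). Btg2, an antiproliferative gene, rose by 2.42 ± 0.19, the zinc finger gene Egr4 by 1.63 ± 0.22, and Gadd45g, a stress and DNA demethylation gene that was on no list here, by 1.97 ± 0.27.

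The 5xFAD pair was uneven for these genes. Npas4 stood at 6.98 CPM in E3 5xFAD and at 50.8 CPM in E4 5xFAD, and Fos at 16.4 and 71.1 CPM. Over the immediate-early list, 5 of 22 genes passed in aged against young, 21 estimates were positive, and the median was 1.01, beside 0.0035 over all genes. The summed level of the list in members was 945, 1154, 2837, 2213, 742 and 1379 CPM. In other spots it was 942, 1199, 2234, 1559, 717 and 1136 CPM, so the aged sections were high and E3 5xFAD was lowest in members and other spots alike.

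**Figure D5:**
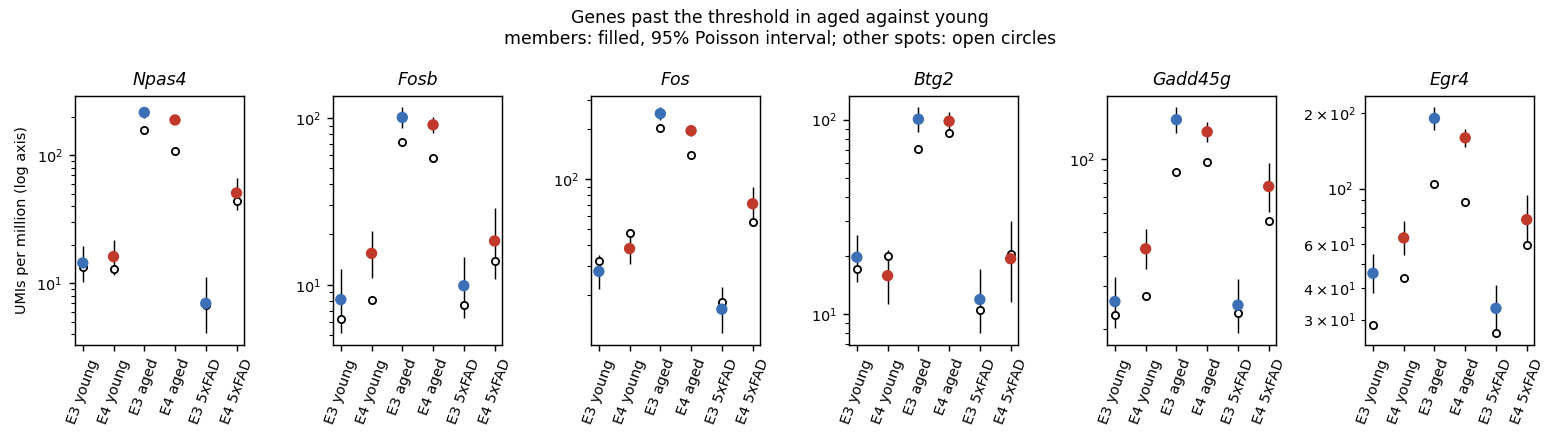
Level in members of the 6 genes that passed the test in aged against young (filled circles, CPM on a log axis, exact 95% Poisson intervals, blue for E3 and red for E4) and in other spots (open circles). The aged pair is highest in each panel, in members and in other spots, and E4 5xFAD lies above E3 5xFAD.

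Since these genes moved together, the 250 bases before their annotated starts are shown for 4 of them (RefSeq, GRCm38.p6). Many immediate-early genes are known to respond to the factor CREB, whose binding site has the core TGACG. Capitals mark TGACG or its complement CGTCA on the strand shown, searched on both strands, and positions count from the start, with -1 the base before it. Npas4 (chr19:4989972-4990221, minus strand) had matches beginning at -179 and -169, Fos (chr12:85473640-85473889, plus strand) at -129 and -66, and Egr4 (chr6:85513590-85513839, minus strand) at -177 and -109. Btg2 (chr1:134079156-134079405, minus strand) had the full palindrome TGACGTCA, which begins at -166 and in which both cores overlap.
Npas4: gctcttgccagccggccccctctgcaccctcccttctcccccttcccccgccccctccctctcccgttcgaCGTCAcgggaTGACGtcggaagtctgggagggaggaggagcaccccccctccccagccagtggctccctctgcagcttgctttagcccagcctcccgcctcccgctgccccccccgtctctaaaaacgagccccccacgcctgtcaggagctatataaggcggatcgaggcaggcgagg
Fos: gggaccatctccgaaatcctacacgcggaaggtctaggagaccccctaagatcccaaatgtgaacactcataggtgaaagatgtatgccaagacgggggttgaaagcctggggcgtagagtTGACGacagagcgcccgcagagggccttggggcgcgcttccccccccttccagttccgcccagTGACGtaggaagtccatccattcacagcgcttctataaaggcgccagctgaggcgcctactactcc
Egr4: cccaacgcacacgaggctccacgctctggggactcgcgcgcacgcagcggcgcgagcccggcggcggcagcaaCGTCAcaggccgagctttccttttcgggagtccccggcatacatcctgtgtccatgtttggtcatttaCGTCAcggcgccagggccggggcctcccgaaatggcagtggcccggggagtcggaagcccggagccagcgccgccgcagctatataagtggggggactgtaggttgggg
Btg2: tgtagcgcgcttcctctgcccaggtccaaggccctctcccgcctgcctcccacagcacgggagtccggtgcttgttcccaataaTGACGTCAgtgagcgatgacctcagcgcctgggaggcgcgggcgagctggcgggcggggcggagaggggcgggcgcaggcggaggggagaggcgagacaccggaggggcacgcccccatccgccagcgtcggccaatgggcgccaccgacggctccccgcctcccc
Fosb had 1 core, at -60, and Gadd45g none in this window. Among 32851 promoter windows of this length, 17.8% held the core and 1.55% the palindrome. A match is a stretch of letters and not a shown binding site.

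No other list gave a call in aged members. The disease-associated microglia list had a median of 0.07 over 29 genes, complement one of 0.12 over 8, and reactive astrocytes one of 0.31 over 10, all with none past the threshold. The 12 fiber tract genes had negative estimates throughout (median -0.42), as did the 13 mitochondrially encoded genes (median -0.35), and the 3 blood genes tested were positive (median 1.45), again with no call. Blood genes summed to 13.7 and 60.1 CPM in young members and 107 and 66.5 CPM in aged ones, and their part in the result was not tested. No gene passed when 20 UMIs were asked for in every section. The count also fell without E3 young or E4 young and rose without E4 aged, E3 5xFAD or E4 5xFAD. These fits without a section have the limit given above for 5xFAD. In ventral lateral members 15 genes passed, the 6 included.

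In E4 against E3 members over all 3 conditions, 2 of 12103 genes passed (0.0165%), 1 higher and 1 lower (0.00826% each), with 599 at an unadjusted p under 0.05. Serpina3n, a secreted protease inhibitor of reactive astrocytes and oligodendrocytes, stood at 22.96, 55.8 and 40.3 CPM in the young, aged and 5xFAD sections of E3, and at 111, 137 and 143 CPM in those of E4 (1.71 ± 0.16, adjusted p = 0.00156). Each E4 section lay above all E3 sections. In ventral lateral members the difference was 2.22 (adjusted p = 2.9e-07), and in other spots the levels were 17.8, 34.7 and 77.2 CPM in E3 and 121, 164 and 161 CPM in E4. Gm47283, a predicted gene with no assigned function, was lower, at 46.7, 95.6 and 95.3 CPM in E3 and 2.70, 1.52 and 5.08 CPM in E4 (-4.91 ± 0.27, adjusted p = 8.5e-06). In other spots Gm47283 was at 39.5, 76.9 and 99.7 CPM in E3 and 1.97, 1.24 and 3.00 CPM in E4.

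The genes next in order did not pass. These were Eps8l1 (3.19 ± 0.47, adjusted p = 0.0929), 3300002P13Rik (-3.43 ± 0.53, adjusted p = 0.108), Nos1, the neuronal nitric oxide synthase (-0.9985 ± 0.16, adjusted p = 0.149), Wdfy1 (-1.2 ± 0.21, adjusted p = 0.188) and the neuropeptide gene Gal (-2.34 ± 0.41, adjusted p = 0.188). Nos1 stood at 40.4, 40.9 and 41.9 CPM in E3 members and at 20.4, 23.2 and 19.3 CPM in E4 members, so the 2 genotypes did not overlap, and in ventral lateral members it passed (-1.16, adjusted p = 0.00249). Of the lists, 1 of 10 reactive astrocyte genes passed, which was Serpina3n. The disease-associated microglia list (median -0.0086), complement (-0.0091) and MHC class I (-0.086) had none. All 12 fiber tract genes had positive estimates (median 0.26) and all 13 mitochondrial ones negative (median -0.32), with no call.

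The count was 1 without E3 young or E4 young, and 15, 88 and 91 without E4 aged, E3 5xFAD or E4 5xFAD. Against upper cortex, no gene of 12651 had a genotype difference of its own in members by edgeR or DESeq2, with 353 at an unadjusted p under 0.05 in edgeR. The smallest p there belonged to Itch, Nts, Dipk2a, Grp and Cnot3. The neurotensin gene Nts, for example, had a term of 1.79 ± 0.42 (adjusted p = 0.716).

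Within single conditions only 1 section faced 1, so ratios are given with their counting interval and no test. At least 2-fold differences in E4 over E3 members were seen for 2.27% of 11715 genes in the young pair (1.19% higher, 1.08% lower), 3.39% of 11624 in the aged pair (1.79% and 1.6%) and 4.3% of 11012 in the 5xFAD pair (2.36% and 1.93%). The E4 over E3 log2 ratio of Serpina3n was 2.28 (1.88 to 2.70) in young, 1.29 (0.98 to 1.62) in aged and 1.83 (1.45 to 2.22) in 5xFAD. Gfap did not keep a direction: its ratio was 0.01 (-0.43 to 0.45), -0.75 (-1.13 to -0.37) and 1.04 (0.82 to 1.26) in the same order. C4b had 0.11 (-0.68 to 0.89), -0.26 (-0.85 to 0.34) and 1.34 (0.98 to 1.69), and Trem2 0.27 (-0.30 to 0.84), -0.06 (-0.59 to 0.49) and 0.72 (0.40 to 1.04). Other glial genes that had risen in 5xFAD lay near 0 in that pair: C1qa had 0.05 (-0.20 to 0.29), B2m -0.05 (-0.24 to 0.15) and Fcer1g -0.36 (-0.87 to 0.13). Members of E4 5xFAD were also fewer and more scattered than those of E3 5xFAD.

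By list, the median E4 over E3 log2 ratio of disease-associated microglia genes was -0.07 in young, -0.06 in aged and 0.41 in 5xFAD, with 23 of 28 genes higher in the last, beside all-gene medians of 0.06, -0.00029 and 0.11 and 6973 of 11012 genes higher in the last. Reactive astrocyte genes had 0.01, -0.22 and 0.84, with 3 of 7 at least 2-fold higher in 5xFAD. Immediate-early genes had 0.39, -0.33 and 0.89. Within the 5xFAD pair the ratio was 2.86 (2.04 to 3.75) for Npas4 and 2.11 (1.53 to 2.71) for Fos. Mitochondrially encoded genes had -0.29, 0.10 and -0.65, and fiber tract genes 0.30, 0.02 and 0.60. Region lists moved as well: hippocampus CA genes had -0.0083, -1.14 and 0.88 (8 of 9 higher in 5xFAD) and striatum genes -0.68, -0.24 and 0.83 (9 of 10 higher in 5xFAD). The part of these lists in the ratios above was not tested.

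Within genotypes, at least 2-fold differences of 5xFAD over young were seen for 3.07% of 11683 genes in E3 (2.11% higher, 0.959% lower) and 5.55% of 11023 in E4 (3.43% and 2.12%). The disease-associated microglia list had a median log2 ratio of 1.10 in E3 (14 of 26 genes at least 2-fold higher) and 1.34 in E4 (16 of 25), and complement 1.40 and 1.85. Etv1 had a log2 ratio of -0.985 (-1.26 to -0.72) in E3 and of -1.28 (-1.65 to -0.92) in E4. For aged over young, 3.53% of 11407 genes in E3 (2% higher, 1.53% lower) and 2.35% of 11888 in E4 (1.44% and 0.908%) differed at least 2-fold. There the immediate-early list had medians of 1.45 in E3, with 13 of 20 genes at least 2-fold higher, and 0.66 in E4, with 8 of 21. Hippocampus CA genes had 1.11 in E3, with 5 of 9 at least 2-fold higher, and 0.0089 in E4, and their part in the difference was not tested. These comparisons share the young sections.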

How the data were processed

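UMI counts per gene and spot were deposited by the authors as Visium matrices, 1 per section, with a tissue mask. Per the submitters' processing notes the reads were processed with Space Ranger 1.3.0 and STAR 2.5.1b on mm10 and GRCh38. The file headers name Space Ranger 1.2.2 in 5 sections and 2.0.0 in E3 5xFAD, so a difference between versions and that section cannot be told apart. Mouse genes and the human genes of the APOE alleles and transgenes were kept (32288 genes). Some genes that the naming rule picked are not reported here.

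Members, defined by the rule given above, were summed per section. The sums were tested with edgeR 4.0.16 in R 4.3.3 (TMM, filterByExpr, quasi-likelihood F-test, Benjamini-Hochberg over all genes tested), with genotype and condition as additive terms and 2 residual degrees of freedom. The lone section of a group is thereby assumed to vary like the others. The p-values of these fits also assume that the genotype difference is the same in each condition. The 2 residual degrees of freedom hold the departures of the 6 sections from that additive pattern. A genotype difference that depends on condition thus counts as error, and it cannot be told apart from spread between sections. Interaction fits took 12 sums with section as a block. DESeq2 1.42.0 was an alternative. Single sections were compared without a test, with exact Poisson, binomial or conditional binomial 95% intervals that cover counting error only. Python 3.11.15 with numpy 2.4.6, scipy 1.17.1 and pandas 2.3.3 did the rest. No doublet caller was run, since a spot holds several cells.

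On simulated counts (11904 genes, 5xFAD against young) 64 of 98 genes changed by 1 on the log2 scale and 94 of 100 changed by 2 were recovered, with 8 false calls. For the interaction against upper cortex (12359 genes) 177 of 200 genes changed by 2 were recovered, with 8 false calls. In each simulation the counts came from a single mean profile with a common biological coefficient of variation of 0.104. Apart from the changed genes, expression held no difference between sections, genotypes or sets of spots. The rates therefore do not carry over to the real sections.

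The members, gene lists and tests were chosen with earlier results of these data known. Genes were named by rule: per comparison the 10 largest changes in each direction past the threshold (8 for interactions), or the 5 with the smallest p where fewer than 3 passed, and up to 4 members of each list. Other genes past the threshold were named after their values were seen. The alternatives were other cutoffs, a cutoff within each section, other minimum depths, thinning, other filters, touching members and leaving out each section. Those without hippocampal members and with ventral lateral members were chosen after seeing the data, as was the use of all barcodes for the interactions and the ratios within pairs.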

Additional observations from a re-analysis of the deposited data

Results flagged for a closer look

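For 4 genes the 5xFAD response of members differed from that of upper cortex spots by the test of the interaction, on the log2 scale: Nnat (-1.435), Etv1 (-1.24), Thy1 (0.7582) and Gsg1l (1.379). Against deep cortex spots the same test singled out 19 genes. Lower in members than in deep cortex by this term were Nr2f2 (-1.919), Hpcal1 (-1.03), Cnih3 (-0.9701), Nnat (-0.9514), C1qa (-0.824), Ccn3 (-0.7585) and Sst (-0.6528). Higher were Nfil3 (2.509), Prkca (1.087), Nr4a1 (0.9475), Wipf3 (0.8543), Inf2 (0.8152), Nptx1 (0.8107), Chgb (0.7293), Slc24a2 (0.71), Egr1 (0.6701), Cplx2 (0.643), Ttr (0.6397) and Ptgds (0.6354). Their adjusted p (edgeR) ran from 7.6e-05 to 0.0427, and DESeq2 called none of them. In members alone, the 5xFAD over young log2 ratio of Ttr was -2.08 in E3 and 3.02 in E4. That of Ptgds was 1.09 and -0.18. For Nr4a1 and Egr1 it was negative in E3 and positive in E4. For Inf2 and Wipf3 it was 0.056 (-0.25 to 0.36) and 0.054 (-0.15 to 0.26) in E3, intervals that span both signs. In E4 it was 1.38 and 0.90. The other genes that were higher by the term against deep cortex had positive ratios in both genotypes. Of those lower by it, C1qa had positive ratios in both. Nr2f2, Hpcal1, Cnih3, Nnat, Ccn3 and Sst had negative ratios in both, each lower in E4 than in E3. The E3 intervals of Hpcal1 (-0.36 to 0.0085) and Cnih3 (-0.54 to 0.019) spanned both signs.

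The E4 over E3 log2 ratio of Nr2f2 in members was 1.164 in the aged pair and -2.247 in the 5xFAD pair. That of Ttr, a choroid plexus gene, was -2.428 in the young pair, 1.506 in the aged pair and 2.674 in the 5xFAD pair. Each ratio compares 1 section with 1, and the differences between pairs were not tested.

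Outside the tissue masks, 33 spots with at least 1000 UMIs scored at or above the cutoff.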

How the results depend on the processing

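Of the 33 genes called in 5xFAD against young, all 33 were called among ventral lateral members, as were all 6 in aged against young and both in E4 against E3, while the counts themselves moved with the settings. For 5xFAD, aged and E4 in turn, the counts were 162, 54 and 44 without a filter on low counts, 76, 16 and 23 at the 97th percentile, 57, 17 and 7 after thinning to 5000 UMIs, 82, 17 and 26 without hippocampal members, and 70, 15 and 20 in ventral lateral members. For aged the count was also 0 with 20 UMIs asked for in every section, 2 at the 90th percentile, 1 with the cutoff set within each section, 11 with a minimum of 5000 UMIs and 22 in touching members. For E4 it was 1 with 20 UMIs in every section and 21 in touching members. Leaving out 1 section gave 2 to 273 genes for 5xFAD, 0 to 67 for aged and 1 to 91 for E4, lowest without a young section and highest without a 5xFAD section. The interaction against upper cortex gave 0 by DESeq2, 11 without a filter, 0 at the 90th and 2 at the 97th percentile, 8 in touching members, and 0 to 44 without 1 section (0 without E4 young, 44 without E3 aged). Against deep cortex it gave 0 by DESeq2, 30 without a filter, 0 at the 90th percentile, 0 in touching members, 4 with all barcodes, and 3 to 83 without 1 section (3 without E4 young, 83 without E4 aged). Its term for Sst turned to 0.2921 at the 97th percentile. The genotype term against upper cortex, with 0 calls, gave 2 without a filter, 1 at the 97th percentile, 6 in touching members and 1 to 17 without 1 section. Fits without 1 section, those of the interactions included, have fewer than 2 residual degrees of freedom. Their counts thus do not show on which sections a result rests. The cause of these shifts was not tested.

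The share of members in E4 aged over the pooled share was 1.546, and 1.287 at the 90th percentile, 2.03 at the 97th and 2.126 in touching members. In E4 5xFAD it was 0.5096, and 0.7361 at the 90th percentile, 0.201 at the 97th, 0.7494 after thinning, 0.09987 in touching members and 0.3195 in ventral lateral ones. The mean of the sections' median positions was 0.859, and 1.932 with the thalamus as the ventral landmark. Log2 ratios of a list's summed UMIs weigh abundant genes most and differ from the list medians given above. For disease-associated microglia genes, E4 over E3, this ratio was 0.05707, -0.1385 and 0.2682 in the young, aged and 5xFAD pairs. It was 0.1179 in the young pair at the 90th percentile, -0.06887 in the aged pair for ventral lateral members, and in the 5xFAD pair 0.4475 at the 97th percentile and 0.1702 for ventral lateral members. For 5xFAD over young it was 0.2888 in E3 and 0.4982 in E4, where the list medians were 1.10 and 1.34. It was 0.2426, 0.3748 and 0.3327 in E3 at the 90th percentile, the 97th and by the mean share per spot, and 0.4134, 0.7414 and 0.6046 in E4. In E4 it was also 0.4379 for ventral lateral members and 0.4418 over genes with at least 100 UMIs. For immediate-early genes, aged over young, it was 1.584 in E3 and 0.9421 in E4. It was 1.464, 1.498, 1.457 and 1.375 in E3 at the 90th and 97th percentiles, by the mean share and for ventral lateral members, and 0.8234 and 0.8233 in E4 at the 90th and 97th percentiles.

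Sections could not be paired by replicate between groups, because each group has 1 section and the labels give no replicate numbers. The block used in the interaction fits joins the 2 sets of spots of 1 section. The members of E4 5xFAD hold the fewest UMIs (984989), which limits what that section can show.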
